A study of Mus musculus with 24 samples.

Results

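The RA receptors and their partners were examined in mouse embryonic stem cells (ESCs) given all-trans retinoic acid (RA). The 8 genes were chosen by name, as the genes for the RA receptors (*Rara*, *Rarb*, *Rarg*), the retinoid X receptors (*Rxra*, *Rxrb*, *Rxrg*) and a pair of corepressors (*Ncor1*, *Nrip1*), out of 26264 genes in the deposited table. Poly(A) RNA was sequenced from BAP1-AID and UTX-AID ESCs, without (−IAA) and with (+IAA) the auxin indole-3-acetic acid, before RA (0 h) and after 3 and 6 h of it, so that the 24 libraries form 12 groups of 2 replicates. BAP1 is a histone H2A deubiquitinase and UTX a histone H3K27 demethylase, and the study asked whether either is needed when RA turns genes on. In the BAP1-AID line an HA-AID tag was placed at the C terminus of BAP1, and in the UTX-AID line at the N terminus of UTX. All groups, −IAA included, also carry stably overexpressed TIR1, the plant adaptor through which IAA brings an AID-tagged protein to degradation. The RA medium lacked leukemia inhibitory factor, so the RA times also differ from 0 h by its withdrawal. Per the paper, IAA was first given 2 h before RA. In the +IAA arm the time since IAA was first given therefore rises with RA time, and averages over RA times join groups of unlike IAA time. The libraries of a line come from 1 clone, no vehicle is stated for the −IAA cells, and no untagged cells were among the groups, so a line, its clone and its tag cannot be told apart. Nor can IAA itself be told apart from the loss of the tagged protein, and an effect of IAA below means the difference between the arms. Nothing states that replicates were separate cultures, so p-values measure the spread between these samples, which may be technical.

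RA receptors bind RA and act on DNA as dimers with retinoid X receptors. The dimers sit on paired hexamers called RA response elements, of which the best known are direct repeats with a spacer of 5 bases (DR5). Without RA the dimer holds corepressors such as NCOR1, which brings a histone deacetylase. RA exchanges these for coactivators. NRIP1 (also RIP140) is a corepressor of another kind, which binds receptors once they hold their ligand. *Rarb* is a classical RA target with a DR5 element at its promoter, RARA and RARG are the receptors that stem cells express before RA is given, and retinoid X receptors also pair with thyroid hormone, vitamin D, PPAR and LXR receptors.

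The counts of a library summed to 48392851 to 52766527 in BAP1-AID and to 42018795 to 54034789 in UTX-AID. A count of 3, used here as the limit of detection, was 0.0545 to 0.0695 CPM (counts scaled to TMM library sizes), and covers counting error only. The 6 ESC markers (*Pou5f1*, *Sox2*, *Nanog*, *Esrrb*, *Zfp42*, *Tdgf1*) summed to 2560 to 3010 CPM in the 24 libraries, against 1.03 to 6.94 for 5 endoderm markers, 15.6 to 38.9 for 3 neuroectoderm, 0.316 to 1.5 for 3 mesoderm and 2.27 to 13.7 for 4 fibroblast markers. No marker was at 0 in every library. The marker sums differed with RA and between the clones: in −IAA BAP1-AID ESCs the endoderm sum was 2.0 and 2.7 CPM at 0 h and 5.77 and 6.63 at 6 h, the neuroectoderm sum 23.2 and 27.3 and then 38.9 and 33.3, and the fibroblast sum 12.1 and 12.1 and then 8.42 and 8.08. In −IAA UTX-AID ESCs the endoderm sum was 3.13 and 1.03 CPM at 0 h and 3.36 and 3.2 at 6 h, the neuroectoderm sum 17.7 and 17.1 and then 20.3 and 20.5, and the fibroblast sum 7.11 and 6.93 and then 4.04 and 3.36. The ESC sum went from 3010 and 2940 CPM at 0 h to 2700 and 2690 at 6 h in −IAA BAP1-AID ESCs. In −IAA UTX-AID ESCs it went from 2940 and 2880 to 2720 and 2730. The part of these markers' cells in the differences with RA or between the clones was not tested. Of 4 RA target genes used as a check of the treatment, 4 passed higher at 3 and at 6 h in either clone and arm. *Cyp26a1*, which encodes an RA-degrading enzyme, was at 1.23 and 1.08 CPM at 0 h and at 475 and 482 CPM at 6 h in −IAA BAP1-AID ESCs. These are bulk libraries, in which fewer cells that express a gene and less RNA per cell cannot be told apart.

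The promoter sequence that bears on the receptors is shown here because a DR5 of the letters searched was found for 1 member. RefSeq promoter windows (250 bases before to 50 after each start; table on GRCm38.p6) were searched on both strands for direct repeats of the hexamer AGGTCA or its close forms, which were AGTTCA, then GGGTCA and also GGTTCA, in any combination, with spacers of 1, 2 and 5 bases. The 8 members had 17 windows. A DR5 was found in the *Rarb* window, 53 to 37 bases before the RefSeq start and in the direction of the gene. Capitals mark its hexamers, and the window matched mm39 at 1 place:
*Rarb*, chr14:5894228-5894256 (mm39, plus strand): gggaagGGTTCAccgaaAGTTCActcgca
In the GENCODE vM39 annotation the element lies in an exon, and there in the untranslated region, of 14 of the 21 *Rarb* transcripts. Of 32851 windows of this length in the table, 32 (0.0974%) held a DR5. Direct repeats with a spacer of 1 or 2 bases were in 0.222% and 0.268% of all windows and in 0 of the members' windows. A match describes letters in a window and shows neither binding nor its absence.

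Before RA, *Rarg* was the most abundant member per length of transcript. In −IAA BAP1-AID ESCs it was at 60.7 and 60.3 CPM per kb of its canonical transcript, followed by *Rxrb* (25.3 and 22.9), *Ncor1* (21.4 and 23.6), *Rara* (14.9 and 15.8), *Rxra* (2.19 and 2.29), *Rxrg* (1.87 and 2.36), *Nrip1* (1.12 and 1.23) and *Rarb* (0 and 0.0174). The replicates of *Rxrb* and *Ncor1* overlapped, as did those of *Rxra* and *Rxrg*, and the other neighbours in this order did not. *Rarg* led in all 12 groups. *Rxrb*, *Ncor1* and *Rara* held the next 3 places in each of them, in changing order. With the combined length of all exons in place of the canonical transcript, *Rarg* still led and the same genes followed, but several neighbours changed places, such as *Rarb* and *Rxra* at 6 h in −IAA UTX-AID ESCs. In UTX-AID ESCs without RA, *Ncor1* (37.7 and 37.0 CPM per kb) stood above *Rxrb* (15.8 and 17.2), and these values did not overlap.

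**Figure D1:**
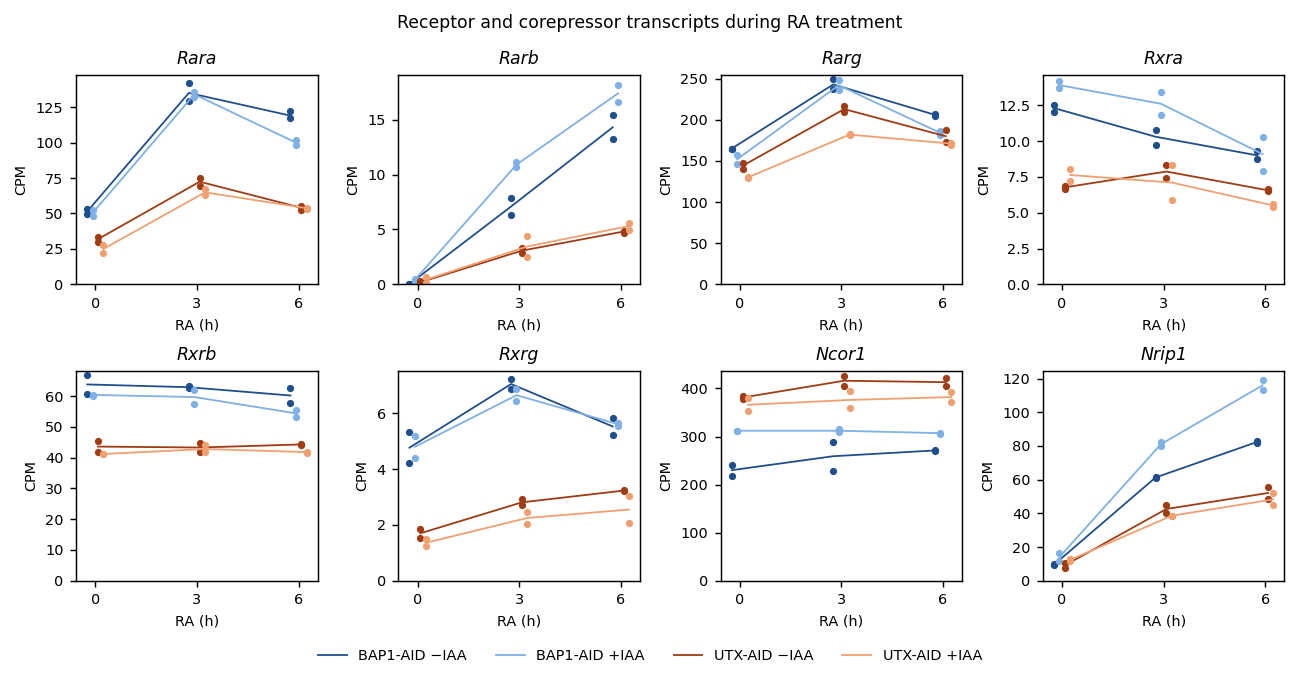
Level of each of the 8 genes (vertical axis, CPM, starting at 0) against hours of RA (0, 3, and 6) in BAP1-AID (blue) and UTX-AID (orange) ESCs, dark without and light with IAA. Points are the 2 replicates and lines join group means; *Rarb* and *Nrip1* climb from near 0 and about 10 CPM in each clone and arm, *Rara* and *Rarg* peak at 3 h, and *Rxrb* and *Ncor1* stay almost flat while differing between the clones.

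In −IAA BAP1-AID ESCs, 5 of the 8 genes passed (adjusted p under 0.05, edgeR's quasi-likelihood test) higher at 3 h of RA, against 5.51% of the 15695 genes tested, and 4 at 6 h, against 10.8%. In −IAA UTX-AID ESCs, 4 passed higher at 3 h, against 3.56% of 16268 genes, and 5 at 6 h, against 4.28%. *Rara*, *Rarb*, *Rarg* and *Nrip1* were among those higher at both times in both clones, and were also the 4 that passed higher with IAA at each time in each clone, where 4.61% and 8.93% of all genes did so at 3 and 6 h in BAP1-AID. In UTX-AID with IAA the shares were 2.77% and 4.05%. No member passed lower except *Rxra* at 6 h in +IAA BAP1-AID ESCs, where 6.44% of genes did. In the other comparisons, in the same order, 1.85%, 5.08%, 1.28% and 2.62% of genes passed lower without IAA, and with IAA 1.91% (BAP1-AID, 3 h), 0.799% (UTX-AID, 3 h) and 2.40% (UTX-AID, 6 h). With the added requirement of a log2 fold change over 1, *Rara*, *Rarb* and *Nrip1* remained in each of these comparisons but that at 6 h in −IAA UTX-AID ESCs, where *Rarb* and *Nrip1* did. Of all genes, 1.89% and 2.98% met that requirement as higher at 3 and 6 h in −IAA BAP1-AID, 2.05% and 3.18% in +IAA BAP1-AID, 1.28% and 1.51% in −IAA UTX-AID, and 1.10% and 1.63% in +IAA UTX-AID. The comparisons of an arm share their 0 h samples. The 8 genes were chosen with earlier results of these data known and include a classical RA target. The shares of all genes are therefore given as a description and not as a test of the set. By DESeq2, 5 members passed at 3 h and 5 at 6 h in −IAA BAP1-AID ESCs, against 9.46% and 18.3% of genes in either direction. In −IAA UTX-AID ESCs DESeq2 passed 4 and 4, against 6.04% and 7.94%, so that 1 call by edgeR at 6 h was not shared. When GC content and transcript length were corrected for, the genes that passed at 6 h in −IAA BAP1-AID ESCs were 1150 higher and 1227 lower, against 1691 and 797 without it.

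*Rarb* showed the widest range. Its counts in −IAA BAP1-AID ESCs were 0 and 3 at 0 h, 307 and 405 at 3 h, and 767 and 679 at 6 h, or 6.36 and 7.82 CPM at 3 h and 15.4 and 13.2 CPM at 6 h. The 0 h libraries were at or under the limit of detection, and the summed counts at 6 h were 490 times those at 0 h after scaling for library size (95% counting interval 167 to 2380). The fitted log2 fold change was 7.82 at 3 h (standard error 0.832, adjusted p = 7.89e-08) and 8.85 at 6 h (0.831, adjusted p = 1.09e-08), and with so few counts at 0 h it depends on the prior count of the fit. Without −IAA 0 h replicate 1 it was 6.85 and 7.88, and without −IAA 0 h replicate 2 it was 11.48 and 12.50. With IAA the counts were 17 and 24 at 0 h and 926 and 815 at 6 h, a ratio of 42.4 (31.1 to 59.3). The counts in −IAA UTX-AID ESCs were 5 and 13 at 0 h, 142 and 139 at 3 h, and 214 and 251 at 6 h, a ratio of 25.9 at 6 h (16.2 to 44.0), with a log2 fold change of 4.69 (0.571, adjusted p = 2.57e-05). With IAA in UTX-AID the ratio at 6 h was 12.7 (9.27 to 17.7), and the 0 h replicates, at 36 and 7 counts, lay far apart: the fitted log2 fold change at 6 h of 3.69 became 5.24 without +IAA 0 h replicate 1 and 2.98 without replicate 2. Without −IAA 0 h replicate 2, the value of 4.69 in −IAA UTX-AID ESCs became 5.49. In each clone and arm the 3 h and 6 h libraries lay above the 0 h libraries with no overlap. *Rarb* shares exons with *Top2b* on the other strand, and it is not stated whether the counting used the strand. *Top2b* was at 27.4 to 54.4 CPM in BAP1-AID and 74.6 to 93.5 CPM in UTX-AID, and its part in the counts of *Rarb* was not tested.

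*Rara* encodes RARα, one of the receptors present before RA, and rose at both times, with its highest levels at 3 h. In −IAA BAP1-AID ESCs it was at 49.9 and 52.8 CPM at 0 h, 129 and 142 at 3 h, and 122 and 117 at 6 h, a log2 fold change of 1.41 at 3 h (standard error 0.0738, adjusted p = 1.63e-07) and of 1.25 at 6 h (0.0739, adjusted p = 2.76e-07). The −IAA UTX-AID libraries were at 33.7 and 30.0 CPM at 0 h, 69.6 and 75.2 at 3 h, and 52.5 and 55.4 at 6 h. There its log2 fold change was 1.20 (0.0975, adjusted p = 1.64e-06) at 3 h and 0.77 (0.0979, adjusted p = 7.85e-05) at 6 h. The 0 h values did not overlap those of either later time in any clone or arm. *Rarg* rose less. It went from 165 and 164 CPM at 0 h to 237 and 249 at 3 h and 207 and 204 at 6 h in −IAA BAP1-AID ESCs, a log2 fold change of 0.58 (0.0633, adjusted p = 9.2e-05) and 0.35 (0.0633, adjusted p = 0.00242). In −IAA UTX-AID ESCs, at 144 ± 5.76 CPM at 0 h (SD, n = 2), 213 ± 5.16 at 3 h and 180.0 ± 9.76 at 6 h, its log2 fold changes were 0.58 and 0.33 (adjusted p = 1.12e-05 and 0.00162). With IAA in BAP1-AID, the 6 h difference of *Rarg* (0.29, adjusted p = 0.00719) no longer passed without +IAA 0 h replicate 1 (adjusted p = 0.142), +IAA 6 h replicate 1 (0.0555) or +IAA 6 h replicate 2 (0.105).

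The retinoid X receptors, the partners on DNA, gave few calls. *Rxrb*, the most abundant of them per length, was at 66.9 and 60.7 CPM at 0 h, 63.3 and 62.5 at 3 h, and 57.7 and 62.7 at 6 h in −IAA BAP1-AID ESCs, and the groups overlapped. It passed in 0 of the 8 comparisons of 3 or 6 h with 0 h, with log2 fold changes of −0.13 to 0.08, and the 95% interval of its 6 h difference was −0.20 to 0.09 in −IAA BAP1-AID and −0.11 to 0.18 in −IAA UTX-AID ESCs. *Rxra* was at 12 and 12.5 CPM at 0 h, 9.72 and 10.8 at 3 h, and 8.72 and 9.28 at 6 h in −IAA BAP1-AID ESCs, so that each later library was below each 0 h library. Its log2 fold change at 6 h, −0.42 (standard error 0.133), had an adjusted p of 0.0531, and 0.0204 after that correction (log2 fold change −0.48). It also passed without either −IAA 3 h library (adjusted p = 0.0333 without replicate 1 and 0.0245 without replicate 2) or either +IAA 6 h library (0.0259 and 0.0257). With IAA, *Rxra* went from 14.2 and 13.7 CPM to 10.3 and 7.89 CPM at 6 h, a log2 fold change of −0.59 (0.132, adjusted p = 0.00881), which was lost without +IAA 0 h replicate 1 (0.0529) or +IAA 6 h replicate 2 (0.0895). *Rxra* in −IAA UTX-AID ESCs was at 6.65 and 6.89 CPM at 0 h and 6.49 and 6.64 CPM at 6 h (log2 fold change −0.03, 95% interval −0.37 to 0.31).

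*Rxrg*, whose product is best known from muscle and brain, was at 4.21 and 5.32 CPM at 0 h, 6.88 and 7.22 at 3 h, and 5.85 and 5.21 at 6 h in −IAA BAP1-AID ESCs. The 3 h libraries lay above the 0 h libraries, with a log2 fold change of 0.58 (standard error 0.157, adjusted p = 0.0455), and the 6 h libraries overlapped them (0.24, adjusted p = 0.379). The 3 h call was lost in 11 of the 12 fits without 1 library, with an adjusted p of up to 0.299 there (without −IAA 0 h replicate 1), and kept only without −IAA 0 h replicate 2. It was also lost after the GC and length correction (0.52, adjusted p = 0.0773). *Rxrg* in −IAA UTX-AID ESCs went from 1.52 and 1.87 CPM at 0 h to 2.71 and 2.92 at 3 h and 3.20 and 3.26 at 6 h, a log2 fold change of 0.75 (adjusted p = 0.166) and of 0.94 (0.270, adjusted p = 0.0481). The 6 h call was lost in 10 of the 12 fits without 1 library, with an adjusted p of up to 0.240 (without −IAA 0 h replicate 1), and kept only without +IAA 6 h replicate 1 or 2. With IAA the 6 h difference (0.93, adjusted p = 0.0586) passed without +IAA 6 h replicate 2 (0.0471).

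The 2 corepressors differed in their values. *Nrip1* rose in each clone and arm. In −IAA BAP1-AID ESCs it was at 9.05 and 9.92 CPM at 0 h, 61.2 and 61.5 at 3 h, and 81.9 and 83.0 at 6 h, which gave a log2 fold change of 2.71 (standard error 0.121, adjusted p = 4.57e-08) and then of 3.15 (0.120, adjusted p = 8.28e-09). With IAA it went from 11.7 and 16.3 CPM to 80.2 and 82.1 and then 113 and 119. In −IAA UTX-AID ESCs it was at 10.4 and 7.79 CPM at 0 h, 40.2 and 44.9 at 3 h, and 48.4 and 55.8 at 6 h, with log2 fold changes of 2.24 (0.128, adjusted p = 3.25e-08) and 2.53 (0.127, adjusted p = 6.8e-09). With IAA the UTX-AID libraries went from 11.9 and 12.9 CPM to 38.7 and 38.6 and then 44.8 and 51.8. No 0 h library overlapped a later library of its clone and arm.

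*Ncor1*, the corepressor held by receptors without ligand, passed in 0 of the 8 comparisons with 0 h by edgeR (3 had an unadjusted p under 0.05) and in 1 by DESeq2. In −IAA BAP1-AID ESCs it was at 218 and 241 CPM at 0 h, 229 and 289 at 3 h, and 270.0 and 272 at 6 h, and the 3 h replicates lay further apart than those of any other group. Its log2 fold change at 6 h was 0.26 (standard error 0.0929, adjusted p = 0.0806; 0.0431 by DESeq2), and after the GC and length correction *Ncor1* passed at both times (0.19, adjusted p = 0.0236, and 0.22, adjusted p = 0.00669). Without −IAA 3 h replicate 1, it passed at 3 h (0.35, adjusted p = 0.00201) and at 6 h (adjusted p = 0.00147), and without −IAA 3 h replicate 2 at 6 h (0.0024). With IAA it was at 312 and 312, 316 and 309, and 307 and 306 CPM at the 3 times (log2 fold change at 6 h below 0.01 in size, 95% interval −0.19 to 0.18). In −IAA UTX-AID ESCs the log2 fold change was 0.14 at 3 h and 0.13 at 6 h (adjusted p = 0.265 and 0.287). *Ncor1* shares exons with *Ttc19* and *Pigl* on the other strand. *Ttc19* was at 16.6 to 27.7 CPM in BAP1-AID and 39.7 to 48.4 CPM in UTX-AID. *Pigl* was at 41.8 to 56.0 CPM in BAP1-AID and 54.5 to 80.9 CPM in UTX-AID. Their part in the counts of *Ncor1* was not tested.

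**Figure D2:**
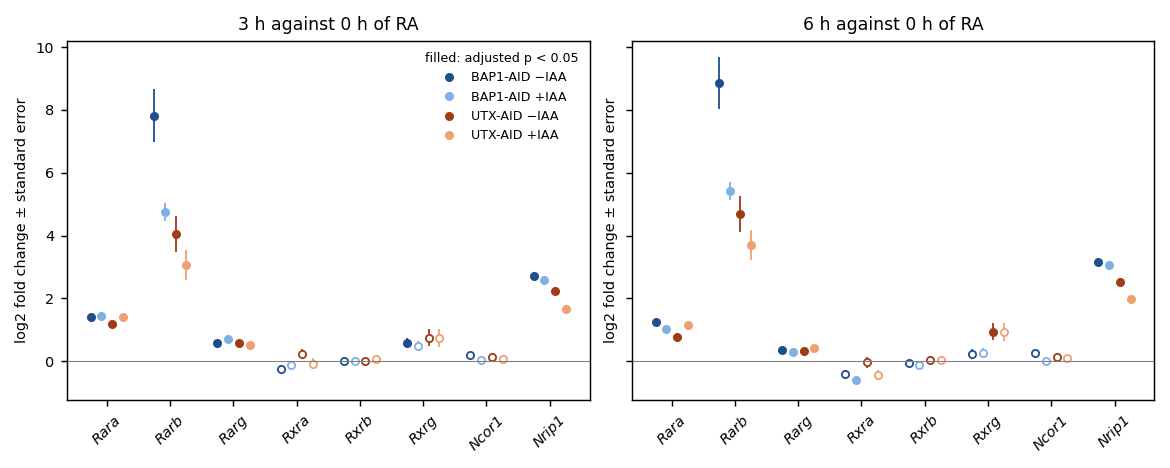
Log2 fold change against 0 h of RA (vertical axis) for each gene at 3 h (left) and 6 h (right) in both clones and arms, with bars of 1 standard error; filled points passed at an adjusted p under 0.05. *Rarb* stands highest, between 3.06 and 8.85, *Nrip1* lies between 1.66 and 3.15 and *Rara* between 0.77 and 1.44, whereas *Rxrb* and *Ncor1* lie within −0.13 to 0.26 with open points.

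The makeup of the receptor transcripts is given as a description. Per kb, the 3 RA receptor transcripts summed to 75.6 and 76.1 CPM per kb at 0 h in −IAA BAP1-AID ESCs, 127 and 136 at 3 h, and 117 and 114 at 6 h. *Rarg* made up 80.2% and 79.2% of that sum at 0 h and 65.0% and 65.9% at 6 h, *Rara* 19.8% and 20.8% and then 31.2% and 30.7%, and *Rarb* 0% and 0.0229% and then 3.87% and 3.42%. In −IAA UTX-AID ESCs the share of *Rarg* went from 83.6% and 85.8% to 80.0% and 77.9%, and that of *Rarb* reached 1.62% and 1.77%. *Rarb* was the smallest of the 3 in all libraries. The retinoid X receptors summed to 29.4 and 27.6 CPM per kb at 0 h and 26.0 and 27.7 at 6 h in −IAA BAP1-AID ESCs, and to 17.7 and 19.3 and then 19.4 and 19.4 in −IAA UTX-AID ESCs. *Rxrb* made up 80.7% to 89.4% of that sum in the 24 libraries. Levels per kb rest on the canonical transcript, and the isoforms in use were not measured.

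**Figure D3:**
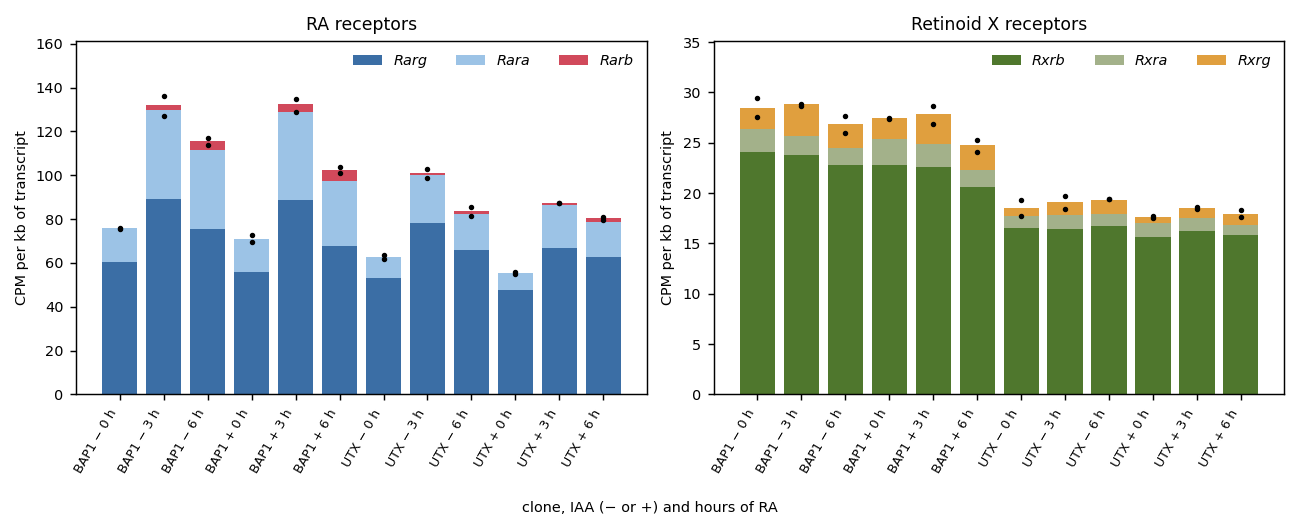
Stacked levels (vertical axis, CPM per kb of canonical transcript, starting at 0) of the 3 RA receptors (left) and the 3 retinoid X receptors (right) in the 12 groups, labelled by clone, IAA (− or +) and hours of RA. Bars are means of 2 replicates and black points the sums of each replicate; the RA receptor sum rises from 75.6 and 76.1 to 127 and 136 at 3 h in −IAA BAP1-AID ESCs with *Rarg* as its largest part, and the retinoid X receptor sum is mostly *Rxrb*.

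From 3 to 6 h the members went different ways in BAP1-AID ESCs. Without IAA, *Rarb* alone passed, higher by a log2 value of 1.03 (standard error 0.182, adjusted p = 0.0153), where 1.09% of genes passed higher. That call was lost without −IAA 6 h replicate 1 (adjusted p = 0.175) or replicate 2 (0.0713). *Nrip1* (0.44, adjusted p = 0.0730), *Rarg* (−0.23, adjusted p = 0.0954) and *Rara* (−0.17, adjusted p = 0.288) did not pass, but *Rarg* passed without −IAA 3 h replicate 1 or 2 (adjusted p = 0.0377 and 0.0271), *Nrip1* without +IAA 0 h replicate 1 or 2 (0.0161 and 0.0169) or −IAA 3 h replicate 2 (0.0200), and *Ncor1* without −IAA 3 h replicate 2 (0.0105). With IAA, *Nrip1* rose further (0.50, standard error 0.111, adjusted p = 0.0221), against 2.84% of genes, while *Rara* (−0.43, 0.0732, adjusted p = 0.00546) and *Rarg* (−0.41, 0.0633, adjusted p = 0.00351) fell, against 2.12%. The calls of *Rara* and *Rarg* were lost without +IAA 3 h replicate 1 (adjusted p = 0.0638 and 0.0595) or +IAA 6 h replicate 1 (0.0798 and 0.0652), and that of *Nrip1* without any one of the 4 +IAA libraries of these times (0.0926 to 0.156). *Rarb* (0.67, adjusted p = 0.0573) passed without any one of the −IAA libraries of 0 and 3 h (0.0188 to 0.0237), and *Rxra* (−0.48, adjusted p = 0.0640) without +IAA 6 h replicate 1 (0.0481) or −IAA 3 h replicate 1 or 2 (0.0353 and 0.0385). In UTX-AID ESCs 0 members passed by edgeR, where 0.486% of genes passed without and 0.289% with IAA. There, 3 members had an unadjusted p under 0.05 without IAA and 2 with IAA, and DESeq2 passed 2 and 0, against 1.42% and 0.664% of genes. *Rara* (−0.42, adjusted p = 0.0691) in −IAA UTX-AID ESCs passed without any one of the 4 UTX-AID libraries of 0 h (0.0401 to 0.0448).

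The change of the RA response with IAA was taken as the log2 fold change of the +IAA arm minus that of the −IAA arm. By edgeR, 0 of the 8 genes passed at 3 h (0.00% of all genes) or 6 h (0.153%) in BAP1-AID and 0 at 3 h (0.0123%) or 6 h (0.00%) in UTX-AID. At an unadjusted p under 0.05 there were 1 gene at 3 h and 2 at 6 h in either clone. DESeq2 passed 1 and 1 in BAP1-AID, against 0.917% and 1.94% of genes, and 0 in UTX-AID, against 0.0184% and 0.00615%. The gene that DESeq2 passed was *Rarb*. In BAP1-AID its log2 difference was −3.07 at 3 h (standard error 0.878, adjusted p = 0.290; 0.0310 by DESeq2) and of −3.43 at 6 h (0.877, adjusted p = 0.0804; 0.00584 by DESeq2). It passed by edgeR at 3 h without −IAA 3 h replicate 2 (adjusted p = 0.0292) and at 6 h without −IAA 3 h replicate 1 or 2 (0.00997 and 0.0109). The difference lay at 0 h, with 0 and 3 counts against 17 and 24, while at 6 h the levels were 15.4 and 13.2 CPM without and 18.2 and 16.6 CPM with IAA. In UTX-AID *Nrip1* did not pass, with a difference of −0.58 at 3 h (0.178) and of −0.54 at 6 h (0.177), each with an adjusted p of 1.00.

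Differences between the +IAA and −IAA arms were seen in BAP1-AID ESCs, where IAA itself and the loss of BAP1 cannot be told apart. At 0 h, 3 genes passed higher with IAA, against 11.8% of all genes, and 0 of the 8 lower, against 6.66%. *Rarb* was at 0 and 3 counts without and 17 and 24 with IAA, a ratio of 14 (95% counting interval 4.48 to 70.9; fitted log2 fold change 3.68, standard error 0.859, adjusted p = 0.00111). That log2 value was 2.72 without −IAA 0 h replicate 1 and 7.34 without replicate 2. *Nrip1* was at 9.05 and 9.92 CPM without and 11.7 and 16.3 CPM with IAA (0.54, 0.126, adjusted p = 0.0102), and *Ncor1* at 218 and 241 against 312 and 312 CPM (0.42, 0.0928, adjusted p = 0.00745). The arms did not overlap for any of these. The call of *Ncor1* was lost without −IAA 0 h replicate 1 (adjusted p = 0.0777), and that of *Nrip1* without it (0.0915) or without +IAA 0 h replicate 2 (0.0870). At 3 h, *Rarb* (0.61, adjusted p = 0.0471) and *Nrip1* (0.40, adjusted p = 0.0364) passed higher, against 8.68% of genes. The call of *Rarb* was lost in 9 of the 12 fits without 1 library (up to 0.193, without −IAA 3 h replicate 1), and kept without −IAA 0 h replicate 1 or 2 or −IAA 3 h replicate 2. That of *Nrip1* was lost in 7 (up to 0.159, without +IAA 3 h replicate 2) and kept without any one of the 0 h libraries or without −IAA 3 h replicate 2. *Ncor1* (0.27, adjusted p = 0.0818) passed without −IAA 3 h replicate 2 (9.9e-05). At 6 h, *Nrip1* passed higher (0.46, adjusted p = 0.0179), against 6.73% of genes, with 81.9 and 83.0 CPM without and 113 and 119 CPM with IAA, and *Rara* lower (−0.28, adjusted p = 0.0253), against 5.73%, with 122 and 117 against 98.2 and 102 CPM. The call of *Nrip1* was lost without any one of the 4 libraries of 6 h (0.0566 to 0.103), and that of *Rara* in 8 of the 12 fits (up to 0.231, without +IAA 6 h replicate 1), being kept without any one of the −IAA libraries of 0 and 3 h. *Rarg* (−0.19, adjusted p = 0.0710) and *Ncor1* (0.15, adjusted p = 0.339) passed at 6 h without −IAA 3 h replicate 1 (0.0152 and 0.0479) or replicate 2 (0.0309 and 0.0169).

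Averaged over the RA times, 3 genes passed higher with IAA in BAP1-AID ESCs, against 17.9% of genes, and 2 lower, against 18.2%. Higher were *Rarb* (1.52, standard error 0.299, adjusted p = 0.000199), *Nrip1* (0.47, 0.0673, adjusted p = 0.000201) and *Ncor1* (0.28, 0.0536, adjusted p = 0.00154), and these passed in all 12 fits without 1 library, although the value of *Rarb* was 2.74 without −IAA 0 h replicate 2. Lower were *Rarg* (−0.11, 0.0366, adjusted p = 0.0308) and *Rxrb* (−0.12, 0.0426, adjusted p = 0.0498). GC content moved with these differences. The 3 genes that were higher have canonical transcripts of 44.6% (*Nrip1*), 48.0% (*Ncor1*) and 49.1% GC (*Rarb*), and the other 5 have 54.8% to 61.4%. After the GC and length correction, *Rarg* (0.09, adjusted p = 0.0536) and *Rxrb* (0.07, adjusted p = 0.233) were no longer lower, *Nrip1* fell to 0.20 (adjusted p = 0.0440) and *Ncor1* to 0.11 (adjusted p = 0.00789), *Rarb* stayed at 1.54 (adjusted p = 0.000249), and *Rxra* passed higher (0.30, adjusted p = 0.00920). At single times, the correction left *Rarb* (3.74, adjusted p = 0.00255) and *Ncor1* (0.25, adjusted p = 0.00650) at 0 h and 0 genes at 3 and 6 h. The call of *Rarg* was also lost in 10 of the 12 fits without 1 library (up to 0.193, without +IAA 0 h replicate 1), being kept without −IAA 3 h replicate 1 or 2. That of *Rxrb* was lost in 10 (up to 0.261, without −IAA 6 h replicate 2), being kept without −IAA 0 h replicate 2 or −IAA 3 h replicate 1. *Rara* (−0.11, adjusted p = 0.0535) passed without −IAA 0 h replicate 1 (0.0480) or −IAA 3 h replicate 1 (0.00938), and *Rxra* (0.15, adjusted p = 0.158) without +IAA 6 h replicate 2 (0.0357).

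In UTX-AID ESCs, 0 members passed with IAA at 0, 3 or 6 h by edgeR, where 0.0430%, 0.264% and 0.0307% of genes did. At an unadjusted p under 0.05 there were 3, 2 and 0 members. DESeq2 passed 0, 1 and 0, the 1 being *Rarg* at 3 h, against 0.455%, 1.03% and 0.258% of genes. Averaged over the times, *Rarg* passed lower (−0.15, standard error 0.0335, adjusted p = 0.0303; −0.14 after the GC and length correction, adjusted p = 0.0238), against 1.76% of genes. It was at 140 and 148 CPM without and 131 and 129 with IAA at 0 h, 209 and 217 against 181 and 183 at 3 h, and 187 and 173 against 169 and 172 at 6 h, and the arms did not overlap at any time. The call was lost in 9 of the 12 fits without 1 library (up to 0.0901, without +IAA 0 h replicate 2), and kept without −IAA 0 h replicate 1, −IAA 3 h replicate 1 or −IAA 6 h replicate 2. *Rara* (−0.17, adjusted p = 0.142) passed without +IAA 0 h replicate 2 (0.0463). *Rarb* was at 18 summed counts without and 43 with IAA at 0 h, a ratio of 2.26 (1.27 to 4.16) that covers counting error only, and its replicates overlapped (5 and 13 against 36 and 7; fitted log2 fold change 1.15, adjusted p = 0.671).

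**Figure D4:**
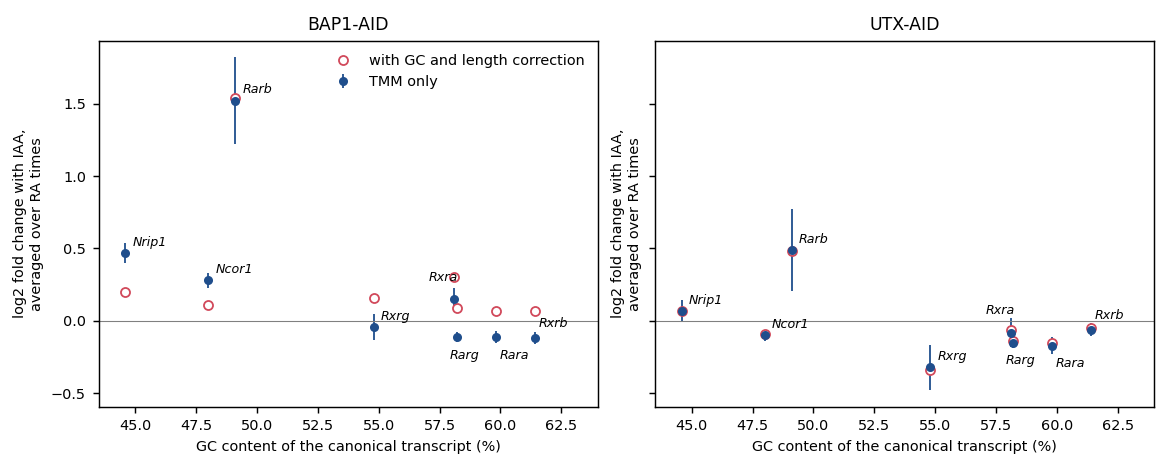
Log2 fold change with IAA averaged over RA times (vertical axis) against GC content of the canonical transcript in percent (horizontal axis) for the 8 genes in BAP1-AID (left) and UTX-AID (right). Filled points with bars of 1 standard error are TMM-scaled values and open points those after the GC and length correction; in BAP1-AID the correction moves *Nrip1* from 0.47 to 0.20 and *Rarg* from −0.11 to 0.09, and in UTX-AID both kinds of point nearly coincide.

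The clones themselves differed in 7 of the 8 genes at 0 h without IAA, where 52.6% of the 16816 genes tested passed, 25.4% higher and 27.2% lower in UTX-AID. UTX-AID ESCs were higher in *Ncor1* (0.73, standard error 0.0818, adjusted p = 7.68e-08) and *Rarb* (2.57, 1.20, adjusted p = 0.0321; 18 against 3 summed counts, a ratio of 6.38 with a counting interval of 1.86 to 33.8). They were lower in *Rara* (−0.69, adjusted p = 9.21e-07), *Rxra* (−0.86, adjusted p = 5.81e-05), *Rxrb* (−0.55, adjusted p = 1.36e-06), *Rxrg* (−1.49, adjusted p = 3.43e-06) and *Rarg* (−0.19, adjusted p = 0.0136). *Nrip1* did not pass (−0.06, 95% interval −0.33 to 0.21). All 3 retinoid X receptors were thus lower in UTX-AID, without overlap of the replicates. After the GC and length correction *Rxrg* (−1.15), *Rara* (−0.27) and *Ncor1* (0.76) still passed in the same direction, *Rxra* (−0.32, adjusted p = 0.0892) and *Rxrb* (−0.17, adjusted p = 0.0577) did not, *Rarg* turned to 0.20 (adjusted p = 0.00446) and *Nrip1* passed lower (−0.46, adjusted p = 0.00882). The call of *Rarb* was lost without BAP1-AID −IAA 0 h replicate 1 (adjusted p = 0.234) or UTX-AID −IAA 0 h replicate 2 (0.301), with values of 1.59 and 1.76, and its value was 6.21 without BAP1-AID −IAA 0 h replicate 2. The call of *Rarg* was lost without UTX-AID −IAA 0 h replicate 1 (0.0661). Over all libraries of a clone, *Ttc19* and *Top2b*, which share exons with *Ncor1* and *Rarb*, lay higher in UTX-AID without overlap. The range of *Pigl* was also higher there but overlapped. The part of these genes in the clone differences of *Ncor1* and *Rarb* was not tested.

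The responses to RA were then compared between the −IAA clones. By edgeR, 0 members passed at 3 h (0.262% of genes) or at 6 h (0.505%), with 3 and 4 at an unadjusted p under 0.05. DESeq2 passed 1 and 2 members, against 0.987% and 1.83% of genes. The fitted difference, UTX-AID minus BAP1-AID, was −3.78 for *Rarb* at 3 h (standard error 1.24, adjusted p = 0.151) and −4.14 at 6 h (1.24, adjusted p = 0.0696). *Rarb* passed at 3 h without UTX-AID +IAA 0 h replicate 2 (0.0478) and at 6 h without either BAP1-AID −IAA 3 h library, either UTX-AID +IAA 0 h library or UTX-AID +IAA 3 h replicate 2 (0.0139 to 0.0499). At 6 h *Rarb* was at 15.4 and 13.2 CPM in BAP1-AID and at 4.72 and 4.90 CPM in UTX-AID. The difference at 6 h was −0.60 for *Nrip1* (0.184, adjusted p = 0.179) and −0.46 for *Rara* (0.127, adjusted p = 0.135; 0.0270 by DESeq2). For *Rarg* the difference at 6 h was −0.01, with a 95% interval of −0.18 to 0.17.

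The effect of IAA averaged over RA times differed between the clones for *Ncor1* (UTX-AID minus BAP1-AID −0.40, standard error 0.0667, adjusted p = 8.1e-05) and *Nrip1* (−0.42, 0.103, adjusted p = 0.00384), against 14.9% of genes that passed lower and 25.9% that passed either way. After the GC and length correction *Ncor1* still passed (−0.20, adjusted p = 0.00118) and *Nrip1* did not (−0.14, adjusted p = 0.407), and 5 of the 8 genes passed, all lower, with *Rara*, *Rarg*, *Rxra* and *Rxrg* added. Of all 16816 genes tested, 1765 passed lower and 1411 higher after it, which is 18.9% either way. *Rarb* (−1.05, adjusted p = 0.0776) passed without BAP1-AID −IAA 0 h replicate 2 (0.0295), UTX-AID +IAA 0 h replicate 1 (0.00350), UTX-AID +IAA 3 h replicate 2 (0.0343) or UTX-AID −IAA 0 h replicate 1 (0.0435).

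The other genes of the pathway gave few calls with RA. Of 9 other corepressor complex genes (*Hdac1*, *Hdac2*, *Hdac3*, *Tbl1x*, *Tbl1xr1*, *Gps2*, *Sin3a*, *Sin3b*, *Lcor*), 0 passed by edgeR at 3 or 6 h in either −IAA clone, with 0 to 2 at an unadjusted p under 0.05 and 0 by DESeq2, and their log2 fold changes lay between −0.30 and 0.21. With IAA, *Hdac1* passed higher at 6 h in BAP1-AID (0.22, adjusted p = 0.0338), against 8.93% of genes, and *Sin3a* lower at 6 h in UTX-AID (−0.31, adjusted p = 0.00755), against 2.40%. *Hdac1* no longer passed after the GC and length correction (0.14, adjusted p = 0.0662). Of 11 coactivator genes, such as *Ncoa1*, *Ncoa2*, *Ncoa3* and *Ep300*, *Kat2b* alone passed in a −IAA clone, higher at 6 h in BAP1-AID (0.28, adjusted p = 0.0412), against 10.8% of genes, and *Ncoa1* (−0.67, adjusted p = 0.00434) and *Ncoa2* (−0.37, adjusted p = 0.0450) passed lower there with IAA, against 6.44%. With the GC and length correction, 1 coactivator gene passed higher and 2 lower at 6 h in −IAA BAP1-AID ESCs, where 15.1% of all genes passed. In UTX-AID 0 coactivator genes passed by edgeR at either time in either arm, with 1 to 2 at an unadjusted p under 0.05 and 0 to 1 by DESeq2. That correction made 1 of them pass lower, at 3 h in −IAA UTX-AID ESCs, where 5.38% of all genes passed. Of 13 other partners of retinoid X receptors, 9 were tested in each clone. *Nr4a1*, an orphan receptor and immediate early gene, passed lower in −IAA BAP1-AID ESCs at 3 h (−0.57, adjusted p = 0.0326) and 6 h (−0.96, adjusted p = 0.000754), against 1.85% and 5.08% of genes, and 0 of the 9 passed in UTX-AID by edgeR or DESeq2, with 0 to 2 at an unadjusted p under 0.05. Corrected for GC content and length, 1 of the 9 passed lower at 6 h in −IAA UTX-AID ESCs, where 7.31% of all genes passed. In +IAA BAP1-AID ESCs, *Thra* passed higher at 3 h (0.61, adjusted p = 0.0388), against 4.61% of genes, but not after the GC and length correction (0.51, adjusted p = 0.0774), after which 1 of the 9 passed lower. At 6 h there *Ppard* passed higher (0.58, adjusted p = 0.0125) and *Nr4a1* lower (−0.70, adjusted p = 0.00706), against 8.93% and 6.44%.

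With IAA averaged over RA times in BAP1-AID ESCs, the corepressor complex genes *Tbl1xr1* (0.40), *Sin3a* (0.31) and *Hdac2* (0.27) passed higher and *Hdac3* (−0.20) and *Sin3b* (−0.18) lower, against 17.9% and 18.2% of all genes. *Tbl1xr1* fell to 0.02 and *Sin3b* to −0.01 after the GC and length correction, while *Sin3a* (0.18), *Hdac2* (0.20) and *Hdac3* (−0.19) still passed. Genes that had not passed before it then did, so that 4 of the 9 passed higher and 1 lower, where 27.8% of all genes passed. Before the correction the median of the 9 genes was 0.20, against −0.035 over all genes tested. Of the coactivator genes, 5 of 11 passed higher (*Ncoa2* 0.35, *Kat2b* 0.30, *Med1* 0.22, *Ncoa6* 0.21 and *Ep300* 0.20) and 0 lower, with a median of 0.20, against the same 17.9% and 18.2% of all genes. After the GC and length correction *Med1* (0.06, adjusted p = 0.220) and *Ep300* (0.12, adjusted p = 0.0750) no longer passed. Genes that had not passed before it then did, so that 6 of the 11 passed higher and 0 lower. Of all genes, 27.8% passed either way after it. In UTX-AID, *Tbl1xr1* (−0.30, adjusted p = 0.000945) and *Tbl1x* (−0.19, adjusted p = 0.0373), both subunits that hold the deacetylase in the NCOR complexes, passed lower with IAA, against 1.76% of genes, and 0 coactivator genes passed by edgeR (1 at an unadjusted p under 0.05) or DESeq2. With the GC and length correction *Tbl1xr1* and *Tbl1x* still passed lower there. Of the 9 corepressor complex genes 1 then passed higher, where 2.8% of all genes passed. Of the other partners of retinoid X receptors, *Nr4a1* (−0.74, adjusted p = 3.75e-05), *Ppard* (−0.34, adjusted p = 0.00497) and *Nr1h3* passed lower with IAA in BAP1-AID, the last with a fitted value of −3.19 and a standard error of 10.3, and 0 passed in UTX-AID by edgeR (1 at an unadjusted p under 0.05) or DESeq2. After the GC and length correction *Nr4a1* (−0.53, adjusted p = 0.000742) and *Nr1h3* still passed and *Ppard* did not (−0.16, adjusted p = 0.159), while 1 of the 9 partners passed higher. Between the clones at 0 h without IAA, 2 corepressor complex genes were higher in UTX-AID and 5 lower, led by *Sin3b* (−0.58), and 8 of the 11 coactivator genes were lower, led by *Ncoa2* (−0.83), where 25.4% of all genes passed higher and 27.2% lower. There *Tbl1xr1*, one of the higher genes (0.51), turned to −0.38 after the GC and length correction, and *Sin3b* came to −0.13 and no longer passed (adjusted p = 0.306). *Hdac2* (0.13, adjusted p = 0.148), *Hdac1* (−0.11, 0.149) and *Lcor* (0.15, 0.157) also no longer passed, while *Hdac3* (−0.32) and *Sin3a* (−0.29) did. Of the 9 corepressor complex genes, 1 passed higher and 3 lower after the correction, where 48.1% of all genes passed. Of the coactivator genes 5 passed lower after it, *Ncoa2* among them (−0.70), while *Kat2a* (0.04), *Ncoa1* (−0.09) and *Ncoa6* (below 0.01 in size) did not pass.

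Genes with a like pattern were sought as a description, by Pearson's correlation of mean log2 CPM over the 12 groups among 11072 genes. The groups share clones and RA times, so many genes correlate, and the values carry no test. *Rarb* was most like *Adgra2* (r = 0.991), *Tspan9* (0.982) and *Nrip1* (0.981), and *Nrip1* was most like *Adgra2* (0.990), *Tspan9* (0.989) and *Steap3* (0.985). *Rara* was most like *Glis2* (0.980), *Dedd* (0.978) and *Trak1* (0.974), and *Rarg* most like *Nodal* (0.951), *Ppp1r9b* (0.948) and *Itga5* (0.944). Among the members, *Rara* and *Rarg* had r = 0.932, and *Rxrb* and *Ncor1*, whose levels differ mainly between the clones and in opposite directions, had r = −0.908.

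The genes lie on mm39 (GENCODE vM39) at chr11:98818612-98865768 (*Rara*, plus strand, 9 exons in the canonical transcript), chr14:5650540-6041094 (*Rarb*, plus, 8), chr15:102143373-102165952 (*Rarg*, minus, 8), chr2:27566452-27653330 (*Rxra*, plus, 10), chr17:34250759-34257376 (*Rxrb*, plus, 10), chr1:167425673-167467193 (*Rxrg*, plus, 10), chr11:62206297-62349368 (*Ncor1*, minus, 47) and chr16:76084280-76170774 (*Nrip1*, minus, 4). The counts are of whole genes.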

How the data were processed

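Per the labels and the submitters' processing notes, reads from oligo(dT)-selected RNA were aligned to mm39 with HISAT2 2.2.1, handled with SAMtools 1.19 (deepTools 3.5.4 is also listed), and turned by the authors with StringTie 2.2.1 into the deposited estimated counts per gene, which are whole numbers, not normalized and need no rounding. The annotation and strand setting are not given in the sources used here. StringTie derives counts from coverage.

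Counts were scaled with TMM and tested with edgeR 4.0.16 in R 4.3.3 (quasi-likelihood, two-sided), with filterByExpr (minimum count 10, minimum total 15), one fit per clone (12 libraries) and one with all 24 for differences between clones. P-values were adjusted by Benjamini-Hochberg across every gene that entered a fit. CPM were computed by edgeR with the TMM library sizes of the 24 libraries. Standard errors are Wald errors of the fit. Every adjusted p is edgeR's unless DESeq2 1.42.0 is named. Levels per kb use the GENCODE vM39 canonical transcript; 23716 of 26264 symbols (90.3%) and the 8 members matched. The correction for GC content and length enters per-library splines with 5 degrees of freedom, fitted on genes with a mean log2 CPM above 1, as offsets. The 8 genes are named in any comparison without selection by value. Pathway genes are named where they passed, beyond the rule for up to 3 per direction shared by both clones, and so after their values were seen. For genes of like pattern the 3 with the highest correlation are named. Alternatives were DESeq2, RLE, no filter, the replicate number as a block, the GC and length correction, both together, all 24 libraries in one fit and each library left out. The fits were tested on simulated data. The members and lists were chosen with earlier results of these data known. One gene of the list of other corepressor complex genes is not reported here and was left out of that list's counts and medians.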

Additional observations from a re-analysis of the deposited data

Results flagged for a closer look

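The effect of IAA averaged over RA times differed between the clones for 2 of the 8 genes by a test of the difference itself. Of all genes, 25.9% passed the same test, so the count does not set the 8 genes apart. For *Ncor1* the difference, UTX-AID minus BAP1-AID, was −0.40 on the log2 scale (−0.10 in UTX-AID against 0.28 in BAP1-AID), and −0.20 after the GC and length correction. For *Nrip1* it was −0.42 (0.07 against 0.47), and −0.14 (adjusted p = 0.407) after that correction. Each clone was a line of its own, so the tagged protein and the clone cannot be told apart here.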

How the results depend on the processing

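Under RLE scaling the number of members passing stayed within 1.5 times its value in every comparison. With DESeq2 it became 3 without and 5 with IAA for 6 against 3 h in BAP1-AID and 2 in −IAA UTX-AID, 1 and 1 for the change of the 3 and 6 h responses with IAA in BAP1-AID, 1 and 2 for IAA in UTX-AID at 3 h and on average, and 1 and 2 for the 3 and 6 h responses between clones. Without a filter on low counts it became 1 for IAA at 3 h in BAP1-AID, 2 for 6 against 3 h in −IAA UTX-AID and 1 for the 6 h response between clones. With all 24 libraries in one fit it became 1 for IAA at 6 h in BAP1-AID and 1 for 6 against 3 h in −IAA UTX-AID. After the GC and length correction it became 0 and 0 for IAA at 3 and 6 h in BAP1-AID and 5 for the IAA effect between clones, and the differences of *Rarg* (0.09) and *Rxrb* (0.07) with IAA in BAP1-AID and of *Rarg* between clones (0.20) reversed. That correction also moved the share of higher genes among all that passed in −IAA BAP1-AID ESCs from 74.8% to 60.4% at 3 h and from 68.0% to 48.4% at 6 h, and no setting moved the median of all genes by over 0.1. The cause of these changes was not tested.

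The replicate numbers were not taken to pair the samples, since not every pair of groups had a correlation above 0.1: deviations from the group means correlated at −0.0596 to 0.344 in BAP1-AID (1 of 15 pairs of groups above 0.1) and −0.0777 to 0.279 in UTX-AID (9 of 15), so that a partial pairing in UTX-AID is possible. There the replicate block raised the genes that passed from 79 to 242 for 6 against 3 h without IAA and from 7 to 68 for IAA at 0 h. With this block, the members that passed became 2 for 6 against 3 h in −IAA BAP1-AID, 2 in −IAA UTX-AID (*Rara* and *Rarg*, lower, each with an adjusted p of 0.0281) and 1 for IAA at 3 h in BAP1-AID. With block and GC correction together it became 0 and 0 for IAA at 3 and 6 h in BAP1-AID, 2 for 6 against 3 h in −IAA UTX-AID, 1 for IAA at 3 h in UTX-AID and 5 for the IAA effect between clones, and the same differences reversed (0.09, 0.07 and 0.20).

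With 1 library left out, the count lay between 0 and 4 for 6 against 3 h in −IAA and 0 and 5 in +IAA BAP1-AID, 3 and 5 for 6 h in +IAA BAP1-AID, 0 and 1 for each change of response with IAA in BAP1-AID, 1 and 3, 0 and 3, 0 and 4, and 3 and 6 for IAA in BAP1-AID at 0, 3, and 6 h and on average, 0 and 1 for 6 against 3 h in −IAA UTX-AID and for IAA on average in UTX-AID, and 0 and 1 for the 3 h and the 6 h response between clones. For single genes, 2926 values stayed on their side of the threshold, 99 calls were lost and 47 gained. The counts of *Rarb* at 0 h in −IAA BAP1-AID ESCs were at or under the limit of detection, so its fold changes there are imprecise. A lone library left in a group was assumed to vary like the others.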

Other observations

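Apart from *Rarb*, 30 genes had a RefSeq promoter window with the DR5 searched for, and the fits held 5 of them for BAP1-AID and 7 for UTX-AID ESCs. At 6 h of RA without IAA, 2 of the 5 (*Cyp26a1* and *Gm14133*) passed higher in BAP1-AID, against 10.8% of all genes tested, and 1 of the 7 (*Cyp26a1*) in UTX-AID, against 4.28%, and 0 passed lower, against 5.08% and 2.62%. With so few genes, nothing is read from these counts. This count was chosen after the data were seen.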
